A study of Homo sapiens with 16 samples.

Results

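The 78 genes described here encode the proteins of the cytosolic ribosome. They were taken from the deposited expression table by symbol: RPL or RPS followed by a number, with an optional A, L or X, together with RPLP0, RPLP1, RPLP2 and RPSA, without pseudogenes, RPS6 kinases, mitochondrial ribosomal proteins and Y-linked genes, and with a mean of at least 10 CPM (reads of a gene scaled to a total common to all libraries) over the 16 libraries. Of 26258 genes in the table, 81 met the rule on symbols and 78 also met the rule on level, 31 of the small subunit and 47 of the large subunit. The genes just inside the threshold were RPL39L, with a mean of 34.9 CPM, and RPL29, with 35.0 CPM. The genes outside it were RPS26 with 4.61 CPM, RPL10L with 0.554 CPM and RPL3L with 0.00938 CPM.

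The study compared Huh7 and Hep3B, human hepatocellular carcinoma cell lines, with sublines resistant to Sorafenib, a multikinase inhibitor used against this cancer. Each line was measured as parental cells, as cells labelled DMSO (the solvent of the drug), as IR cells and as CR cells, with 2 libraries in each of these 8 groups. IR cells had been selected in rising concentrations and CR cells in a steadily high concentration of Sorafenib, and the IR and CR libraries of both lines carry the label 7 µM Sorafenib. By these labels the resistant cells were sampled with the drug, and no dose is given for the parental and DMSO cells. Resistance and the presence of the drug therefore cannot be told apart here. The labels' text on culture and treatment names the Huh7 sublines, and the same text stands with the Hep3B libraries. Whether the Hep3B sublines were kept in the same way cannot be told from it.

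The cytosolic ribosome translates all nuclear-encoded messages. Its proteins are made in nearly equal numbers, enter the nucleolus and are assembled there with ribosomal RNA, and copies that find no place in a subunit are degraded. Most of their messages begin with a C followed by an unbroken run of pyrimidines, the 5′ terminal oligopyrimidine (TOP) tract, through which mTOR and LARP1 set how strongly they are translated, so that the protein output of these genes can change with no change in RNA.

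The start is shown for 10 members on which the results below turn, 7 with such a run at the annotated start and 3 without it there. Each line gives 30 bases of the RefSeq start table (GRCh38.p14), 10 before and 20 from the annotated transcription start, on the strand of the gene. Capitals mark the pyrimidine run that begins with a C at the start, where at least 4 more pyrimidines follow it.
RPLP0: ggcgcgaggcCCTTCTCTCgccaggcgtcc
RPL13A: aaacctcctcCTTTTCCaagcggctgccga
RPL24: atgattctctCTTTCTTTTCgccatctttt
RPL14: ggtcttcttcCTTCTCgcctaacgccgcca
RPSA: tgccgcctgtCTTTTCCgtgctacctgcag
RPS6: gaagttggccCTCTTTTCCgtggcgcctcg
RPS27: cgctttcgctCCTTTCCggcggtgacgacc
RPS27L: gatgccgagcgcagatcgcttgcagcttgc
RPL9: taatgacgacagacgttctttctttgctgc
RPL19: tctccccttcgcagataatgggaggagccg
The windows lie at the start of the first exon, at chr12:120201092-120201121 (-) for RPLP0, chr19:49487598-49487627 (+) for RPL13A, chr3:101686699-101686728 (-) for RPL24, chr3:40457329-40457358 (+) for RPL14, chr3:39406710-39406739 (+) for RPSA, chr9:19380217-19380246 (-) for RPS6, chr1:153990752-153990781 (+) for RPS27, chr15:63157458-63157487 (-) for RPS27L, chr4:39458903-39458932 (-) for RPL9 and chr17:39200273-39200302 (+) for RPL19. RPS27 and its paralog RPS27L differ here: the start of RPS27 is a C with 6 pyrimidines behind it, and that of RPS27L holds no such run. Of the members, 62 had a start in this table, and 46 of them (74.2%) had the run at a listed start, against 922 of 15160 other protein-coding genes (6.08%). Counted per start, 46 of 77 starts of members (59.7%) had it, against 4.07% of all 35116 starts listed. The 16 members without it at a listed start were RPL10A, RPL15, RPL17, RPL19, RPL27, RPL3, RPL32, RPL4, RPL6, RPL9, RPS15, RPS27L, RPS28, RPS29, RPS4X and RPS7. RPL19 had 2 starts listed, and only that above is shown. Only annotated starts were read, so these members cannot be said to lack the tract in their messages. The median log2 fold change of the 46 members with the run and the 16 without it was 0.32 against 0.30 in Huh7-IR and 0.13 against 0.02 in Huh7-CR against parental cells, and 0.09 against 0.09 in the IR and 0.30 against 0.32 in the CR cells of Hep3B. It was -0.03 against 0.09 in the DMSO cells of Huh7 and 0.18 against 0.14 in those of Hep3B, 0.22 against 0.21 and -0.29 against -0.13 for IR against CR cells of Huh7 and Hep3B, 0.34 against 0.10 between the parental lines and 0.02 against -0.09 for the difference of the change between the lines. The largest of these gaps was between the parental lines, and none was tested.

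The libraries held 46613302 to 76860251 gene-assigned reads, and all 78 members passed the filter on low values (1 CPM or more in 2 libraries or more), which left 15019 genes in all. Of the labelled cell type, 8 of 9 hepatocyte markers had at least 1 CPM in every library. Their summed level ranged from 111 to 36111 CPM, with group means of 13465 (parental), 25201 (DMSO), 286 (IR) and 2079.6 CPM (CR) for Huh7 and 19182 (parental), 33168 (DMSO), 6954 (IR) and 1722 CPM (CR) for Hep3B. The 6 fibroblast markers summed to 23.3 to 772 CPM, the 4 endothelial markers to 0.0927 to 6.36 CPM and the 5 leukocyte markers to 1.05 to 65.5 CPM. Of the 9 hepatocyte markers 8 and 7 fell in the IR and CR cells of Huh7 and 3 and 6 in those of Hep3B against parental cells, where 21.5%, 16.8%, 13.7% and 15.2% of all genes fell, and 1 rose in Hep3B-IR cells. Of 5 fibroblast markers tested 4 rose and 1, LUM, fell in each of the Huh7 sublines, the single endothelial marker tested fell in both, and of 3 leukocyte markers tested 3 fell in its IR and 1 in its CR cells. In Hep3B 1 fibroblast marker rose and 1 fell in IR and 1 rose in CR cells, with no endothelial or leukocyte marker called. Of all genes 36% and 24.5% rose in the IR and CR cells of Huh7 and 18.3% and 23.6% in those of Hep3B. The part of these shifts in the results below was not tested, and in such bulk samples fewer cells of a kind and less RNA per cell cannot be told apart. Replicates of a group also differed over the members as a whole: the median difference between replicate 1 and replicate 2, in log2 units, was 0.22 in Huh7-CR, 0.18 in Huh7-IR, 0.11 in the parental and -0.21 in the DMSO cells of Huh7, -0.13 in Hep3B-parental cells, and between -0.06 and 0.00 in the other 3 groups.

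The members together made up 2.58% to 4.31% of a library. In Huh7, their share was 3.43% and 3.16% in the parental libraries, 3.02% and 3.57% in DMSO, 4.31% and 3.87% in IR and 3.81% and 3.26% in CR. In Hep3B, it was 2.58% and 2.84% in the parental libraries, 3.06% and 3.11% in DMSO, 2.83% and 2.99% in IR and 3.38% and 3.54% in CR. The share was higher without overlap in Huh7-IR than in Huh7-parental cells (4.09% ± 0.311 against 3.29% ± 0.187, SD, n = 2) and in Hep3B-CR than in Hep3B-parental cells (3.46% ± 0.117 against 2.71% ± 0.186, SD, n = 2). The Huh7-CR and Hep3B-IR libraries overlapped with those of their parental cells, and both Hep3B-DMSO libraries stood above both Hep3B-parental libraries. The 47 large subunit genes took 1.53 to 1.74 times as many reads as the 31 small subunit genes in every library, with no correction for gene number or length. With 2 libraries a group, these shares were not tested.

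To learn which single members moved, each resistant group was compared with the parental cells of its line on log2(CPM + 1) in limma, with p-values adjusted over all 15019 genes, and a gene was called at an adjusted p below 0.05. The labels do not say that replicates are separate cultures, so these p-values measure the spread between these samples. In Huh7-IR cells 29 members rose and 5 fell, where 36% and 21.5% of all genes tested did. In Huh7-CR cells 8 rose and 8 fell (24.5% and 16.8% of all genes). In Hep3B-IR cells 1 rose and 8 fell (18.3% and 13.7%), and in Hep3B-CR cells 26 rose and 4 fell (23.6% and 15.2%). As shares of the 78, the members called higher were 37.2%, 10.3%, 1.28% and 33.3%, close to the background in Huh7-IR, above it in Hep3B-CR, and below it in the other 2. The members called lower were 6.41%, 10.3%, 10.3% and 5.13%, below the background in each of the 4 comparisons. The IR and CR comparisons of a line share their parental libraries.

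The changes were small for most members. The median log2 fold change of the 78 was 0.30 for IR and 0.08 for CR cells of Huh7, and in Hep3B 0.11 in IR and 0.30 in CR cells, where the medians of all genes tested were 0.19, 0.07, 0.06 and 0.11. Single members ranged from -1.78 to 1.17 in Huh7-IR, from -0.98 to 1.19 in Huh7-CR cells, and in Hep3B from -0.97 to 0.75 in IR and from -1.23 upwards in CR cells. Over the 4 comparisons 55 members were called at least once and 23 never. Only RPL13A rose in all 4 and only RPL24 fell in all 4, while RPL13 and RPL14 were called in both directions. How many of all genes were called this often is not given. These counts across the 4 comparisons therefore have no background and cannot be read as particular to the members. At the thresholds the study used (p below 0.05 with a log2 fold change no smaller in size than 0.58), 21 and 7 members passed in the IR and CR cells of Huh7 and 7 and 18 in those of Hep3B, where, in this order, 50.1%, 37%, 30.1% and 35.1% of all genes did.

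The balance of higher and lower members depended on how libraries were scaled. The shares of all genes called in these other settings are not given, so the counts below cannot be set against the background above. TMM factors, which centre the bulk of genes, moved the median of all genes in Huh7-IR cells from 0.19 to 0.00 and that of the members to 0.04, and 11 members were then called higher and 12 lower; edgeR on recovered reads gave 16 and 8, and a correction for GC content 13 and 13. In Huh7-CR cells the split was 5 and 12 with TMM factors, 6 and 11 with edgeR, 9 and 4 with quantile normalization and 6 and 17 with the GC correction. In Hep3B-CR cells it was 16 and 6 with TMM factors or edgeR, 16 and 7 with the GC correction, and 8 and 7 with the DMSO libraries in place of the parental ones. With 1 library left out, the Huh7-IR calls fell to 13 higher and 4 lower without Huh7-parental replicate 2. The Huh7-CR calls fell to 6 and 3 without Huh7-parental replicate 1, 3 and 7 without Huh7-parental replicate 2 and 2 and 5 without Huh7-CR replicate 1. The Hep3B-IR calls fell to 1 and 4 without Hep3B-parental replicate 2 and to 0 and 4 without Hep3B-parental replicate 1 or either Hep3B-IR library. The Hep3B-CR calls fell to 9 and 3 without Hep3B-parental replicate 1 and 8 and 3 without Hep3B-CR replicate 2.

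The ribosomal stalk is built from RPLP0, RPLP1 and RPLP2 and recruits the elongation factors. RPLP0 in Huh7 was at 1199.7 and 1128 CPM in the parental libraries, 946 and 1236 in DMSO, 1979 and 2241 in IR and 1941 and 1806 in CR. In Hep3B, RPLP0 was at 738 and 863 CPM in the parental libraries, 957 and 1014 in DMSO, 986 and 932 in IR and 1464 and 1722 in CR. The IR and CR libraries of Huh7 and the CR libraries of Hep3B all lay above every parental and DMSO library of their line, whereas the Hep3B-IR libraries lay above the parental libraries and overlapped with DMSO. The log2 fold change against parental cells was 0.86 (SE 0.16, adjusted p = 6.7e-04) for IR and 0.69 (SE 0.16, adjusted p = 0.0047) for CR cells of Huh7, and 0.99 (SE 0.16, adjusted p = 5.1e-04) for CR and 0.26 (SE 0.16, adjusted p = 0.24) for IR cells of Hep3B. The first 3 calls held in all 31 alternative settings. RPLP1 rose in Huh7-IR (0.90, adjusted p = 0.011) and Hep3B-CR cells (0.83, adjusted p = 0.025). The Huh7-IR call was lost without Huh7-IR replicate 2 (0.65, adjusted p = 0.09) or Huh7-parental replicate 2 (0.71, adjusted p = 0.094), and the Hep3B-CR call without Hep3B-CR replicate 2 (0.63, adjusted p = 0.17) or either Hep3B-parental library (0.69 and 0.96, adjusted p = 0.14 and 0.056) and against the DMSO libraries (0.38, adjusted p = 0.27). RPLP2 rose in Huh7-IR cells (0.82, adjusted p = 0.0036) but not after the correction for GC content (0.14, adjusted p = 0.37), and stood at -0.54 (adjusted p = 0.054) in Hep3B-IR cells, a value that passed in 11 of 31 alternative settings and was -1.16 (adjusted p = 6.5e-04) against the DMSO libraries.

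RPL13A, a large subunit protein that can leave the ribosome and silence inflammatory messages, was the member that rose in all 4 comparisons. RPL13A in Huh7 was at 356 and 299.8 CPM in the parental libraries, 342 and 539 in DMSO, 656 and 763 in IR and 620.3 and 536 in CR. In Hep3B, RPL13A was at 247 and 288 CPM in the parental libraries, 309 and 375 in DMSO, 445 and 452 in IR and 480.2 and 508 in CR. All resistant libraries of Hep3B lay above its parental and DMSO libraries, while in Huh7 a DMSO library reached the level of a CR library. The log2 fold change was 1.11 (SE 0.20, adjusted p = 4.5e-04) in Huh7-IR, 0.82 (SE 0.20, adjusted p = 0.0056) in Huh7-CR cells, and in Hep3B 0.75 (SE 0.20, adjusted p = 0.012) in IR and 0.89 (SE 0.20, adjusted p = 0.0038) in CR cells. Against the DMSO libraries it was 0.72 (adjusted p = 0.008), 0.42 (adjusted p = 0.1), 0.40 (adjusted p = 0.13) and 0.54 (adjusted p = 0.046), so the Huh7-CR and Hep3B-IR calls were lost. The Huh7-CR call was also lost without Huh7-CR replicate 1 (0.71, adjusted p = 0.054) or Huh7-parental replicate 2 (0.69, adjusted p = 0.056), and the Hep3B-IR call without either Hep3B-IR library (0.76 and 0.74, adjusted p = 0.057 and 0.055) or Hep3B-parental replicate 1 (0.64, adjusted p = 0.087).

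RPL24, which lies at the interface of the subunits, was the member that fell in all 4 comparisons. RPL24 in Huh7 was at 589 and 549 CPM in the parental libraries, 492 and 495 in DMSO, 397 and 335 in IR and 303 and 273 in CR. In Hep3B, RPL24 was at 363 and 378 CPM in the parental libraries, 403 and 361 in DMSO, 242 and 263 in IR and 253 and 223 in CR. Every resistant library lay below every parental and DMSO library of its line. The log2 fold change was -0.64 (SE 0.12, adjusted p = 9.1e-04) in Huh7-IR, -0.98 (SE 0.12, adjusted p = 7.3e-05) in Huh7-CR cells, and in Hep3B -0.55 (SE 0.12, adjusted p = 0.0051) in IR and -0.64 (SE 0.12, adjusted p = 0.0018) in CR cells, and -0.21 (adjusted p = 0.32) and 0.04 (adjusted p = 0.93) in the DMSO cells of Huh7 and Hep3B. The Hep3B-IR call was at its limit without Hep3B-IR replicate 1 (-0.49, adjusted p = 0.0503), and the other 3 held in all 31 alternative settings.

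RPS27L, a paralog of the small subunit protein RPS27, is a known target of p53, which is mutated in Huh7 and deleted in Hep3B. It had the lowest log2 fold change of all members in Huh7-IR and Hep3B-CR cells. RPS27L in Huh7 was at 244 and 263 CPM in the parental libraries, 213 and 224 in DMSO, 80.3 and 66.7 in IR and 125 and 132 in CR. In Hep3B, RPS27L was at 178 and 164 CPM in the parental libraries, 98.6 and 93.5 in DMSO, 183 and 186 in IR and 74.2 and 70.1 in CR. In Huh7 the resistant libraries lay below all parental and DMSO libraries, and in Hep3B the DMSO and CR libraries were low and the parental and IR libraries high, with no overlap between them. The log2 fold change against parental cells was -1.78 (SE 0.11, adjusted p = 2.3e-07) for IR and -0.97 (SE 0.11, adjusted p = 3.9e-05) for CR cells of Huh7, and -1.23 (SE 0.11, adjusted p = 1.1e-05) for CR and 0.11 (SE 0.11, adjusted p = 0.51) for IR cells of Hep3B. The 3 calls held in all 31 alternative settings.

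RPS27L was also the only member called lower in DMSO against parental cells, in Hep3B, at -0.82 (SE 0.11, adjusted p = 0.0041), a call lost without Hep3B-DMSO replicate 2 (-0.79, adjusted p = 0.066) or Hep3B-parental replicate 1 (-0.77, adjusted p = 0.07). In Huh7-DMSO cells its log2 fold change was -0.21 (adjusted p = 0.27). Against the DMSO cells of Hep3B, RPS27L was therefore higher in IR, at 0.94 (adjusted p = 6.9e-05), and lower in CR, at -0.41 (adjusted p = 0.013). Between the resistant sublines, it was lower in Huh7-IR than in Huh7-CR cells (-0.80 (SE 0.11, adjusted p = 0.0014)) and higher in Hep3B-IR than in Hep3B-CR cells (1.34 (SE 0.11, adjusted p = 2.1e-05)). The first of these was lost with the Huh7 libraries alone (-0.80, adjusted p = 0.052). RPS27 itself passed the test in none of the 4 resistant comparisons, at 0.31, 0.26, -0.59 and -0.36 in the IR and CR cells of Huh7 and then of Hep3B (adjusted p from 0.11 to 0.47). In Hep3B-IR cells RPS27 passed with DESeq2 (-0.68) and with the GC correction (-0.74).

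The ratio of RPS27L to RPS27, both in CPM and not corrected for length, was 2.31 and 2.50 in Huh7-parental, 1.90 and 2.36 in Huh7-DMSO, 0.475 and 0.662 in Huh7-IR and 0.858 and 1.21 in Huh7-CR libraries. In Hep3B it was 1.23 and 1.06 in parental, 0.564 and 0.643 in DMSO, 1.88 and 1.85 in IR and 0.486 and 0.794 in CR libraries. The IR libraries thus held the lowest ratios in Huh7 and the highest in Hep3B. RPL39L, a paralog of RPL39 at the exit of the peptide tunnel, was called once, lower in Hep3B-IR cells (-0.56 (SE 0.19, adjusted p = 0.039)), a call lost in 9 alternative settings that include leaving out each Hep3B-IR and each parental library. RPL39 passed in none of the 4, and the ratio of RPL39L to RPL39 in CPM lay between 0.0871 and 0.203. Of 4 further paralogs outside the rule on symbols (RPL22L1, RPL26L1, RPL36AL and RPL7L1), only RPL22L1 was called, lower in Huh7-CR cells and both resistant sublines of Hep3B (-0.98, -0.83 and -0.92), and the ratio of RPL22L1 to RPL22 in CPM was 0.117 and 0.102 in Huh7-parental and 0.0521 and 0.0499 in Huh7-CR libraries, and 0.197 and 0.159 in Hep3B-parental and 0.0905 and 0.0725 in Hep3B-CR libraries.

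RPS20, a protein of the small subunit head, had the largest rise in Huh7. RPS20 in Huh7 was at 234 and 203 CPM in the parental libraries, 229 and 272 in DMSO, 473 and 515 in IR and 542 and 463 in CR. In Hep3B, RPS20 was at 211 and 243 CPM in the parental libraries, 224 and 229 in DMSO, 265 and 272 in IR and 275 and 258 in CR. The 4 resistant libraries of Huh7 lay far above its parental and DMSO libraries, and those of Hep3B lay above theirs by little. The log2 fold change was 1.17 (SE 0.13, adjusted p = 1.6e-05) for IR and 1.19 (SE 0.13, adjusted p = 2.6e-05) for CR cells of Huh7, held in all 31 alternative settings, against 0.24 (SE 0.13, adjusted p = 0.19) for IR and 0.23 (SE 0.13, adjusted p = 0.18) for CR cells of Hep3B. The mean change of IR and CR differed between the lines by 0.95 (SE 0.16, adjusted p = 9.9e-04).

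RPL7, a large subunit protein, and RPS23, which lies at the decoding centre, fell in Huh7. RPL7 in Huh7 was at 43.5 and 44.8 CPM in the parental libraries, 39.0 and 34.5 in DMSO, 24.1 and 14.6 in IR and 32.1 and 25.4 in CR. RPS23 in Huh7 was at 378 and 373 CPM in the parental libraries, 356 and 326 in DMSO, 232 and 191 in IR and 285 and 227 in CR. For both genes the resistant libraries lay below the parental and DMSO libraries. The log2 fold changes of RPL7 were -1.19 (SE 0.21, adjusted p = 4.9e-04) for IR and -0.61 (SE 0.21, adjusted p = 0.037) for CR cells, and the second call was lost in 10 of 31 alternative settings, which include the DMSO reference (-0.35, adjusted p = 0.21) and leaving out either Huh7-parental library or Huh7-CR replicate 2. Those of RPS23 were -0.83 (SE 0.14, adjusted p = 3.8e-04) and -0.56 (SE 0.14, adjusted p = 0.0079), the second lost without Huh7-CR replicate 2 (-0.40, adjusted p = 0.09). In Hep3B neither was called, with values from -0.14 to 0.15 for RPL7 and 0.12 to 0.14 for RPS23.

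RPSA, which is both a small subunit protein and a surface receptor for laminin, and RPL14 fell in Hep3B. RPSA in Hep3B was at 119 and 138 CPM in the parental libraries, 144 and 145 in DMSO, 64.7 and 64.6 in IR and 79.1 and 67.7 in CR. RPL14 in Hep3B was at 259.8 and 261 CPM in the parental libraries, 269 and 288 in DMSO, 148 and 168 in IR and 185 and 182 in CR. All resistant libraries lay below all parental and DMSO libraries for both. The log2 fold changes of RPSA were -0.97 (SE 0.12, adjusted p = 7.1e-05) for IR and -0.80 (SE 0.12, adjusted p = 2.5e-04) for CR cells, held in all 31 alternative settings. Those of RPL14 were -0.72 (SE 0.14, adjusted p = 0.0018) and -0.50 (SE 0.14, adjusted p = 0.013), the second lost without any 1 of the 2 Hep3B-CR and 2 Hep3B-parental libraries (-0.51 to -0.49, adjusted p from 0.054 to 0.066). In Huh7, RPSA was not called, at 0.22 (adjusted p = 0.12) and 0.13 (adjusted p = 0.41) (for IR 0.30 (adjusted p = 0.04) against the DMSO libraries), and RPL14 rose in IR (0.58 (SE 0.14, adjusted p = 0.0035)), though not with TMM factors (0.32, adjusted p = 0.056) or a correction for length (0.20, adjusted p = 0.27).

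Other members, some with a role of their own, moved to differing extents. RPL5 and RPL11, which with 5S ribosomal RNA bind MDM2 when ribosome assembly fails, were called in none of the 4 resistant comparisons, with log2 fold changes from -0.09 to 0.34 for RPL5 and from -0.21 to 0.09 for RPL11. RPL11 was called lower in Huh7-CR cells by DESeq2 (-0.30) and with the GC correction (-0.39). RPS27A, made as a fusion with ubiquitin, was not called either (0.01 to 0.26), but it was against the DMSO libraries of Huh7, at 0.42 (adjusted p = 0.036) in IR and 0.51 (adjusted p = 0.02) in CR cells. RPS6, the substrate of the S6 kinases, rose in Hep3B-CR cells alone (0.51 (SE 0.16, adjusted p = 0.024)), a call lost in 9 of 31 alternative settings, among them DMSO libraries in place of parental ones (0.11, adjusted p = 0.64) and leaving out Hep3B-CR replicate 2 or either Hep3B-parental library. RPL10, among the last proteins to join the large subunit, rose in Hep3B-CR cells (0.82 (SE 0.18, adjusted p = 0.0041)) in all 31 alternative settings and stood at 0.49 (adjusted p = 0.06) in Hep3B-IR cells. RPL3, at the peptidyl transferase centre, RPS4X, which has a partner on the Y chromosome, and RPL22 were called in none of the 4. Against the DMSO libraries RPL3 was lower in Huh7-CR cells, at -0.75 (adjusted p = 0.013), and RPS4X in Huh7-CR cells, at 0.43 (adjusted p = 0.062) against parental cells, passed in 4 of 31 alternative settings. RPS18, of the small subunit head, rose in Huh7-IR (1.01, adjusted p = 3.8e-04), Huh7-CR (0.61, adjusted p = 0.014) and Hep3B-CR cells (0.78, adjusted p = 0.0039), the Huh7-CR call being lost without Huh7-CR replicate 1 (0.43, adjusted p = 0.14) or either Huh7-parental library (0.61 and 0.62, both adjusted p = 0.062). RPL36 was among the 3 highest in Hep3B-CR cells, at 0.98 (SE 0.22, adjusted p = 0.004) against parental and 0.63 (adjusted p = 0.038) against DMSO cells. RPL21 fell in Hep3B-IR cells (-0.77 (SE 0.14, adjusted p = 0.0016)), from 96.3 and 110.4 CPM to 54.6 and 65.7, in all 31 alternative settings.

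Genes around the members were set beside them. For each member, the median log2 fold change of the other genes tested that start within 5 Mb of it (13 to 221 genes, without other ribosomal protein genes) was set beside its own. The values of 3 members on chromosome 3 in the GRCh37 annotation show this in Hep3B: RPSA (chr3:39448207-39467746), RPL14 (chr3:40498783-40510078) and RPL29 (chr3:52027538-52029911). In Hep3B-IR cells their own values were -0.97, -0.72 and -0.77 and those of their neighbours -0.59, -0.63 and -0.68. In Hep3B-CR cells their own values were -0.80, -0.50 and -0.39 and those of their neighbours -0.56, -0.65 and -0.60. In Huh7-IR cells the same neighbours stood at 0.55, 0.53 and 0.40. RPL29 itself was not called in Hep3B against parental cells (adjusted p = 0.082 and 0.36), but it was against the DMSO libraries, at -1.45 (adjusted p = 0.0034) in IR and -1.06 (adjusted p = 0.019) in CR cells.

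Other members whose neighbours had values of the same sign were found in both lines. In Hep3B-IR cells RPL21 stood at -0.77 beside neighbours at -0.38, RPS13 at -0.60 beside -0.38 and RPS27, not called, at -0.59 beside -0.67. In Huh7-IR cells RPS20 stood at 1.17 beside 0.79, RPL7 at -1.19 beside -0.49, RPS23 at -0.83 beside -0.50 and RPS18 at 1.01 beside 0.65. Some members stood apart from their surroundings: RPS27L stood at -1.78 in Huh7-IR and -1.23 in Hep3B-CR cells, where its neighbours stood at -0.07 and -0.19. RPL24 stood at -0.64 in Huh7-IR cells beside neighbours at 0.00, and RPL13A at 0.75 and 0.89 in the IR and CR cells of Hep3B beside 0.13 and 0.17. RPLP0 stood at 0.99 in Hep3B-CR cells beside 0.24.

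Across the 78 members, the correlation of a member's change with that of its neighbours was r = 0.64 in Huh7-IR (Spearman rho = 0.62), 0.70 in Huh7-CR (rho = 0.70), 0.80 in Hep3B-IR (rho = 0.38) and 0.64 in Hep3B-CR cells (rho = 0.47). It was 0.69 and 0.64 in the DMSO comparisons of Huh7 and Hep3B, 0.69 between the parental lines and 0.83 for the difference of the change between the lines. These values are across genes, which are not replicates, 24 members share a window with another member, and all points of a comparison rest on the same libraries. Over all 14597 genes with a position the correlation was 0.20 to 0.37, and over the 6394 of them with a mean at least that of the lowest member 0.22 to 0.42. By rank the gap was smaller in Hep3B-IR cells, with rho = 0.38 for the members and 0.29 over all genes. Over all comparisons rho was 0.23 to 0.42 for all genes. Windows of 2 Mb and 10 Mb gave r of 0.52 to 0.79 and 0.52 to 0.82 for the members. Values corrected for GC content gave r of 0.40 to 0.84 and rho of 0.13 to 0.84, the lowest for IR against CR cells of Hep3B. This comparison was chosen after the values were seen, and what sets the level of the neighbourhoods was not tested.

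The parental lines already differed in 36 of the 78 members. In Huh7-parental against Hep3B-parental cells 29 members were higher and 7 lower, where 22.5% and 27.8% of all genes were, and 21 passed at the thresholds of the study (44.2% of all genes). RPSA was higher in Huh7-parental cells by 1.55 (SE 0.12, adjusted p = 4.0e-07), at 385 and 366 CPM against 119 and 138. RPS2, of the mRNA entry side of the small subunit, was higher by 1.43 (SE 0.16, adjusted p = 1.5e-05), at 869 and 729 CPM against 277 and 312. RPL13 was higher by 1.32 (SE 0.13, adjusted p = 4.7e-06) and RPS4X by 1.00 (SE 0.17, adjusted p = 4.3e-04). On the other side, RPL9 was at 35.6 and 32.9 CPM in Huh7-parental and 88.0 and 93.2 in Hep3B-parental cells (-1.38 (SE 0.17, adjusted p = 2.7e-05)). RPS6 differed by -0.82 (SE 0.16, adjusted p = 0.0011), with 735 and 724 CPM against 1236 and 1333, and RPS10 by -0.63 (SE 0.13, adjusted p = 0.0017). The neighbours of RPSA, RPL13, RPL9, RPS6 and RPS10 stood at 0.79, 0.61, -1.09, -1.03 and -0.95, and those of RPS4X, on the X chromosome, at -0.71, against its own direction. Without Huh7-parental replicate 1 the counts were 17 and 6.

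The change under resistance also differed between the lines for 13 members, 6 with a more positive and 7 with a more negative change in Huh7 than in Hep3B (17.4% and 14.2% of all genes, and 35% at the thresholds of the study, which 13 members passed). This comparison took the mean of the IR and CR changes of each line. RPSA (1.06 (SE 0.14, adjusted p = 1.9e-04)), RPL14 (1.02 (SE 0.17, adjusted p = 7.9e-04)) and RPS20 were at one end, and RPL7 (-0.91 (SE 0.26, adjusted p = 0.019)), RPS23 (-0.82 (SE 0.18, adjusted p = 0.004)) and RPL8 (-0.82 (SE 0.24, adjusted p = 0.021)) at the other. The calls of RPL7 and RPL8 were lost with DMSO libraries in place of parental ones (-0.62 and -0.58, adjusted p = 0.084 and 0.08), that of RPL7 also without any 1 of the 4 parental libraries (adjusted p from 0.053 to 0.074), and that of RPL8 without replicate 1 of Huh7-parental or Hep3B-parental cells (adjusted p = 0.12 and 0.088). With DMSO libraries as the reference, 14 members were higher and 3 lower, and with a correction for length 11 and 5. The shares of all genes above do not belong to these settings. The counts fell to 4 and 2 without replicate 1 of either parental line and to 3 and 4 without Hep3B-parental replicate 2.

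Few members were called in DMSO against parental cells. In Huh7-DMSO cells limma called 0 members in either direction (3.6% and 1.58% of all genes were called), with 4 at an unadjusted p below 0.05, while edgeR called 0 and DESeq2 1. In Hep3B-DMSO cells RPL7A rose (0.56 (SE 0.13, adjusted p = 0.047), lost in 20 of 30 alternative settings, which include leaving out any 1 Hep3B library) and RPS27L fell (1.11% and 0.533% of all genes). At the thresholds of the study 1 and 3 members passed, beside 14.5% and 8.06% of all genes. The median of the 78 was 0.17 in Hep3B-DMSO cells and that of all genes 0.01, with 70 members above 0, and the 2 medians in Huh7-DMSO cells were 0.01 and 0.05. Without Huh7-DMSO replicate 1, 7 members were called higher in Huh7-DMSO cells. In Hep3B-DMSO cells the calls moved between 0 and 5 with the library left out.

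Most members were higher in IR than in CR cells in Huh7 and lower in Hep3B, though few of these differences were called. Huh7-IR cells had 4 members above and 1 below Huh7-CR cells (9.67% and 6.36% of all genes, and 21% at the thresholds of the study, which 6 members passed), and 65 of the 78 values were above 0. Hep3B-IR cells had 1 member above and 11 below Hep3B-CR cells (6.13%, 7.55% and, with 13 members, 17.8%), and 63 of 78 values were below 0. The median of the 78 was 0.21 in Huh7 and -0.20 in Hep3B, and that of all genes 0.09 and -0.03. Replicates of Huh7-IR and of Huh7-CR cells differed over the members by medians of 0.18 and 0.22, near the size of the Huh7 shift. The highest call in Huh7 was RPL36 (0.82 (SE 0.22, adjusted p = 0.027)), lost with TMM factors (0.68, adjusted p = 0.056), with the GC correction (0.30, adjusted p = 0.19) and without either Huh7-CR library or Huh7-IR replicate 2. In Hep3B the lowest values called were those of RPLP2 (-0.78 (SE 0.20, adjusted p = 0.022)) and RPL21 (-0.74 (SE 0.14, adjusted p = 0.006)), and RPLP0 stood at -0.73 (SE 0.16, adjusted p = 0.012). RPLP2 was lost without Hep3B-IR replicate 2 or either Hep3B-CR library (adjusted p from 0.079 to 0.2), RPL21 without Hep3B-IR replicate 1 (adjusted p = 0.056), and RPLP0 without Hep3B-CR replicate 2 or Hep3B-IR replicate 2 (adjusted p = 0.11 and 0.091). The counts for Huh7 were 0 and 0 with the Huh7 libraries alone and 0 and 2 with TMM factors. With single libraries left out they ran from 1 call, without either Huh7-CR library, to 13, without Huh7-DMSO replicate 2, and those for Hep3B were 22 lower with the Hep3B libraries alone and 1 lower without replicate 2 of Hep3B-IR or Hep3B-CR cells. RPS27L, called in both lines, was described above.

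RPL19 was the gene to which the study normalised its quantitative RT-PCR, so its own level bears on such measurements. In the main figures of the paper, RT-PCR of resistant against parental cells was shown for Huh7, so the Hep3B values below do not bear on it. RPL19 in Huh7 was at 455 and 390.5 CPM in the parental libraries, 401 and 501 in DMSO, 542 and 538 in IR and 437 and 389 in CR. In Hep3B, RPL19 was at 574 and 659.7 CPM in the parental libraries, 687 and 692 in DMSO, 687 and 661 in IR and 820.5 and 945 in CR. Both Hep3B-CR libraries lay above all other libraries, and the Huh7 libraries below all libraries of Hep3B. The log2 fold change against parental cells was 0.36 (SE 0.14, adjusted p = 0.0496) in Huh7-IR, -0.03 (SE 0.14, adjusted p = 0.9) in Huh7-CR cells, and in Hep3B 0.13 (SE 0.14, adjusted p = 0.54) in IR and 0.52 (SE 0.14, adjusted p = 0.013) in CR cells, and -0.54 (SE 0.14, adjusted p = 0.0071) between the parental lines. The Huh7-IR call was lost in 24 of 31 alternative settings. The Hep3B-CR call was lost in 8, among them TMM factors (0.40, adjusted p = 0.052), the DMSO reference (0.35, adjusted p = 0.069), the GC correction (0.29, adjusted p = 0.089) and leaving out Hep3B-CR replicate 2 (0.41, adjusted p = 0.11) or Hep3B-parental replicate 1 (0.42, adjusted p = 0.1), and the call between the lines without replicate 2 of either (both -0.44, adjusted p = 0.069 and 0.072). The 95% interval of its change was -0.34 to 0.28 in Huh7-CR and -0.18 to 0.44 in Hep3B-IR cells.

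The spread of RPL19 over the 16 libraries, as the SD of log2(CPM + 1), was 0.39. It took place 52 of 78 when members were ordered from the steadiest, and place 5 of 17 among RPL19, RPLP0, RPL13A and 14 genes often used as references. Steadier than RPL19 were HPRT1 (0.22), YWHAZ (0.24), TBP (0.27) and PGK1 (0.385), while GAPDH (0.39), ACTB (0.41), RPL13A (0.47) and RPLP0 (0.50) were less steady. Among the members, RPL22 (0.12), RPS7 (0.14), RPL10A (0.17) and RPS3A (0.18) were among the 5 steadiest, and RPSA (1.10), RPL14 (0.77), RPL9 (0.70), RPS27L (0.68) and RPL29 (0.61) the most variable. The median SD was 0.33 over the members and 0.52 over all genes tested. The order mixes differences between the lines with changes under treatment: RPL22, the steadiest, lay between 238 and 323 CPM in all libraries, and RPSA between 64.6 and 459.9 CPM.

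Per kilobase of exon (union of the annotated exons), mean levels ran from 18.0 CPM per kb for RPL7 to 1382 for RPS18. The 5 highest also held RPS12 (1238), RPL30 (1201) and RPS13 (866), and above RPL7 came RPS29 (18.6), RPS27L (19.6), RPL29 (20.7) and RPL9 (24.1). RPL30, RPS12 and RPS18 stayed among the 5 highest with the longest transcript or the MANE Select transcript as the length, RPS27L and RPL7 among the 5 lowest. RPS29 did not: its level was 519 CPM per kb of its MANE Select transcript, which took it to place 29 of 78. The study kept only reads with a single position in the genome, so reads that also match a near-identical copy elsewhere were left out, and levels of members with such copies are uncertain. The annotation names 61 pseudogenes of RPL7, 74 of RPSA and 133 of RPL21, and 2 members have none.

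Some of these copies had reads assigned to them. Whether such reads came from the copy or from the gene it copies was not tested. The table holds 31 rows of pseudogenes and 3 read-through rows named after members, which together took 0.145% to 0.266% of the reads in the group means. RPSA2, a processed copy of RPSA, had a mean of 458 CPM, above the 249 CPM of RPSA. RPSA2 in Hep3B was at 223 and 252 CPM in the parental libraries, 258 and 254 in DMSO, 119 and 123 in IR and 141 and 136 in CR, and so was low in the same libraries as RPSA. Its log2 fold changes were -0.96 in Hep3B-IR, -0.77 in Hep3B-CR and 1.56 between the parental lines, next to -0.97, -0.80 and 1.55 for RPSA. RPL13AP5, a copy of RPL13A with a mean of 262 CPM, stood at 1.19 in Huh7-IR, 0.71 in Huh7-CR cells, and in Hep3B 0.37 in IR and 1.01 in CR cells, and RPL21P28 at -0.78 in Hep3B-IR cells, where RPL21 stood at -0.77. RPS26P11, at 23.7 CPM, exceeded RPS26, which fell short of the level threshold, and the read-through rows RPL17-C18orf32 (343 CPM), RPL36A-HNRNPH2 (144 CPM) and RPS10-NUDT3 (97.4 CPM) share exons with RPL17, RPL36A and RPS10.

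Genes that work with the ribosome were counted in the same fit. FAU, a fusion of a ubiquitin-like protein with a small subunit protein, and RACK1, the scaffold on the small subunit, are ribosome components whose symbols lie outside the rule. RACK1 rose in Huh7-IR cells and both resistant sublines of Hep3B (0.69, 0.51 and 0.88), and FAU rose in Huh7-IR (0.56) and fell in Hep3B-IR cells (-0.53). Of 14 translation factors and other genes with a TOP tract, 7 rose and 2 fell in the IR cells of Huh7, with 2 and 4 in its CR cells, and in Hep3B 3 and 1 in IR and 4 and 1 in CR cells. Those higher were 50%, 14.3%, 21.4% and 28.6% of the list, where 36%, 24.5%, 18.3% and 23.6% of all genes were. Those lower were 14.3%, 28.6%, 7.14% and 7.14%, where 21.5%, 16.8%, 13.7% and 15.2% of all genes were. With TMM factors 3 of the list rose and 4 fell in Huh7-IR cells, with no share of all genes given for that setting. EEF2, the translocation factor, rose in Huh7-IR cells and both resistant sublines of Hep3B (1.09, 0.83 and 1.16), and HNRNPA1, a splicing regulator, fell in Huh7-IR and Huh7-CR (-1.18 and -0.58) and also in Hep3B-CR cells.

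Ribosome biogenesis genes were called lower more often than higher against parental cells, but not in 3 of 4 comparisons against DMSO cells. The shares of all genes called against the DMSO libraries are not given. The counts of lists against DMSO below therefore have no background beside them. Of 44 ribosome biogenesis genes, 5 rose and 23 fell in the IR cells of Huh7, with 1 and 15 in its CR cells, and in Hep3B 0 and 7 in IR and 1 and 6 in CR cells, with median log2 fold changes of -0.52, -0.45, -0.33 and -0.15. Those lower were 52.3%, 34.1%, 15.9% and 13.6% of the list, where 21.5%, 16.8%, 13.7% and 15.2% of all genes were, so that in Hep3B the shares lay near the background. Against the DMSO libraries 10 were higher and 5 lower for IR and 6 and 2 for CR cells of Huh7, and 0 and 5 for IR and 5 and 2 for CR cells of Hep3B, with medians of 0.01, 0.10, -0.14 and 0.11. URB2, needed for the large subunit, fell in Huh7-IR cells and both resistant sublines of Hep3B (-1.48, -1.46 and -1.05), and RRP12 rose in Huh7-IR and Hep3B-CR cells (0.67 and 0.70). Of 77 mitochondrial ribosomal protein genes, 5 rose and 36 fell in the IR cells of Huh7, with 1 and 32 in its CR cells, and in Hep3B 2 and 18 in IR and 6 and 17 in CR cells, with medians of -0.33, -0.37, -0.21 and -0.08. Those lower were 46.8%, 41.6%, 23.4% and 22.1% of the list, above the background in each comparison. Against the DMSO libraries 9 were higher and 23 lower for IR and 3 and 20 for CR cells of Huh7, and 4 and 19 for IR and 11 and 14 for CR cells of Hep3B, and with TMM factors, edgeR, DESeq2, quantile normalization or a correction for GC content or length the list also had more genes lower than higher in each of the 4. MRPL11 fell in all 4 (-1.72, -0.87, -1.33 and -1.06), and MRPL2 rose in Huh7-IR and Hep3B-CR cells (0.83 and 0.82). Of 11 genes of RNA polymerase I and its factors, 2 rose and 1 fell in the IR cells of Huh7, with 0 and 1 in its CR cells, and in Hep3B 0 and 2 in IR and 0 and 1 in CR cells, with TAF1A lower in all 4 (-1.09, -0.80, -1.54 and -0.70) and TAF1D higher in Huh7-IR cells (1.11). Those higher were 18.2%, 0%, 0% and 0% of these 11, where 36%, 24.5%, 18.3% and 23.6% of all genes were. Those lower were 9.09%, 9.09%, 18.2% and 9.09%, beside the background given above.

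Among 15 genes that control translation, 5 rose and 4 fell in the IR cells of Huh7, with 1 and 4 in its CR cells, and in Hep3B 2 and 3 in IR and 3 and 4 in CR cells. Those higher were 33.3%, 6.67%, 13.3% and 20% of the list, where 36%, 24.5%, 18.3% and 23.6% of all genes were. Those lower were 26.7%, 26.7%, 20% and 26.7%, where 21.5%, 16.8%, 13.7% and 15.2% of all genes were. EIF4EBP1, the mTOR-regulated repressor of cap-dependent translation, rose in all 4 (1.89, 1.28, 1.45 and 1.95). EIF4EBP2, also on this list, fell in the IR and CR cells of Hep3B (-0.89 and -0.79). It was not called in those of Huh7 (-0.12 and 0.02). EIF4EBP1 in Huh7 was at 39.9 and 30.3 CPM in the parental libraries, 28.2 and 46.3 in DMSO, 137 and 127 in IR and 104 and 71.1 in CR. In Hep3B, EIF4EBP1 was at 46.4 and 55.4 CPM in the parental libraries, 57.1 and 75.7 in DMSO, 157 and 126 in IR and 199 and 200.1 in CR. Every resistant library lay above every parental and DMSO library of its line. EIF4E, the cap-binding protein that it holds, fell in Huh7-IR, Huh7-CR and Hep3B-CR cells (-1.55, -0.69 and -0.91), and EIF4G1, the scaffold of the same complex, fell in all 4 (-0.46, -0.60, -0.94 and -0.61). LARP1, which binds the TOP tract, rose in Huh7-IR cells (0.51), and MTOR fell in Huh7-CR cells (-0.39). EIF4EBP2, EIF4G1, LARP1 and MTOR were named for their roles after the values were seen. Of the 14 reference genes, 4 rose and 4 fell in the IR cells of Huh7, with 4 and 3 in its CR cells, and in Hep3B 0 and 2 in IR and 0 and 4 in CR cells, with TFRC, the transferrin receptor, lower in all 4 and B2M higher in Huh7-IR and Huh7-CR cells (1.13 and 1.17). Beside the same background, those higher were 28.6%, 28.6%, 0% and 0% of these 14, and those lower 28.6%, 21.4%, 14.3% and 28.6%.

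Of 49 calls named for these lists, without those of EIF4EBP2, and for RPL22L1, 27 held in all 31 alternative settings, among them each call of EIF4EBP1, MRPL11, MRPL2, URB2, TAF1D and B2M. With 1 library left out 19 were lost in at least 1 setting, and with DMSO libraries in place of the parental ones 14 were lost. The calls lost against DMSO were those of EEF2 in Huh7-IR (0.65, adjusted p = 0.063) and Hep3B-IR (0.46, adjusted p = 0.21), RACK1 in Hep3B-IR (0.32, adjusted p = 0.12), EIF4E, EIF4G1, MTOR, TAF1A and TFRC in Huh7-CR, EIF4G1 (-0.09, adjusted p = 0.67) and TFRC in Huh7-IR, TFRC and RPL22L1 in Hep3B-IR, and TAF1A and RPL22L1 in Hep3B-CR cells. LARP1 in Huh7-IR cells was lost with TMM factors (0.26, adjusted p = 0.17), edgeR, DESeq2 and the GC and length corrections.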

How the data were processed

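RNA sequencing was carried out on polyadenylated RNA, with 16 libraries in all. The authors deposited CPM, read counts scaled so that every library has the same total. Per the study's methods and the labels, single-end reads were mapped to hg19 with STAR, only unique hits were kept, and reads over RefSeq exons were counted without pooling replicates. The study's methods and the labels differ on the sequencing platform, the library kit and the number of replicates, and the 2 libraries per group given by the labels were used.

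Each deposited CPM value was a whole multiple of the value of 1 read (100% within 0.05 of a read), which gave totals of 46613302 to 76860251 reads. Gene symbols were found for 26111 of 26258 identifiers. The main test was limma 3.58.1 in R 4.3.3 with a trended variance on log2(CPM + 1), with all 16 libraries in 1 fit, on the 15019 genes that reached 1 CPM in 2 libraries or more. P-values were two-sided and adjusted by Benjamini-Hochberg over all of these genes, and the threshold was 0.05. Fold changes on log2(CPM + 1) understate the change of low genes. The script was tested on simulated data.

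Alternatives were edgeR 4.0.16 and DESeq2 1.42.0 on the recovered reads, TMM factors, quantile normalization, totals without the members, pseudocounts of 0.25 and 4 CPM, 2 other filters on low values, the thresholds of the study, loess corrections (span 0.5) for GC content or length in each library, a replicate block, the libraries of 1 line alone, the DMSO libraries as reference, and leaving out each library. The windows around genes, the MANE Select lengths, the shares with copies added and the gene lists under other scalings or the DMSO reference were chosen after seeing the data. Lengths, GC content and positions came from a GENCODE annotation of GRCh37, and start sequences from RefSeq.

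The members and gene lists were chosen with earlier results of these data known. Genes named were those with a role fixed in advance of the fit, the 3 highest and 3 lowest called in each comparison, the 5 steadiest and 5 most variable, the 5 highest and 5 lowest per kilobase and, for each list, the called genes with the highest and lowest mean change, with further genes where the text says so. Results of some genes that these rules name are not reported here.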

Additional observations from a re-analysis of the deposited data

Results flagged for a closer look

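The change of 13 ribosomal protein genes under resistance differed between the lines at an adjusted p below 0.05 in limma, where the mean of the IR and CR changes in Hep3B was subtracted from that in Huh7. The difference was more positive in Huh7 for RPSA (1.06), RPL14 (1.02), RPS20 (0.95), RPLP2 (0.69), RPL21 (0.65) and RPL38 (0.45). It was more negative in Huh7 for RPL7 (-0.91), RPS23 (-0.82), RPL8 (-0.82), RPS27L (-0.81), RPL13 (-0.64) and RPS2 (-0.61), among others. RPSA, RPL14, RPS20, RPS23 and RPS27L were called in all 30 alternative settings, and RPL13 and RPL21 in 28, RPL8 in 27 and RPL7 in 25 of them. RPS2 and RPL38 were called in 16 settings and RPLP2 in 14. With DMSO libraries as the reference, RPS27L stood at -1.43 and RPLP2 at 1.36. For RPS27L the mean covers unlike values in Hep3B, 0.11 in IR and -1.23 in CR cells. With 2 libraries in a group, no library was tested for standing apart from the others of its group.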

How the results depend on the processing

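None of the values of named genes changed sign while called: under other settings 1460 stayed on their side of the threshold, 74 lost and 28 gained a call, and with 1 library left out 1573 stayed, 112 lost and 11 gained a call. Counts of members called moved by over 1.5 times as follows, and the cause was not tested. Except at the thresholds of the study, the shares of all genes called in these settings are not given. With the libraries of 1 line alone, 19 and 7 were called in the IR and CR cells of Huh7 and 16 in the IR cells of Hep3B against parental cells, 0 between Huh7-IR and Huh7-CR and 23 between Hep3B-IR and Hep3B-CR. At the thresholds of the study 21 and 7 were called in the IR and CR cells of Huh7, 18 in Hep3B-CR, 1 in Huh7-DMSO and 21 between the parental lines. With DMSO as the reference, 14 were called in Hep3B-IR and 15 in Hep3B-CR. In Huh7-DMSO, 1 was called by DESeq2 and with the GC correction, with or without a block. In Hep3B-DMSO, 1 was called with edgeR, TMM factors, a pseudocount of 0.25, no filter, a mean of 10 CPM as filter, the length correction and the GC correction, with or without a block. Between Huh7-IR and Huh7-CR, 2 were called with edgeR or TMM factors, 8 after quantile normalization and 3 with no filter. With single libraries left out, the counts ran from 17 to 37 (IR) and 7 to 20 (CR) in Huh7, from 4 to 12 (IR) and 11 to 35 (CR) in Hep3B, 0 to 7 in Huh7-DMSO, 0 to 5 in Hep3B-DMSO, 1 to 13 between Huh7-IR and Huh7-CR, 2 to 18 between Hep3B-IR and Hep3B-CR, 23 to 41 between the parental lines and 6 to 17 for the difference between the lines. Where a library was left out, the fit took the lone library of that group to vary like those of the other groups.

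The deviations of same-numbered libraries correlated between -0.22 and 0.44 over pairs of groups. The highest values were 0.44 between Huh7-IR and Huh7-CR and 0.415 between the DMSO cells of both lines. With 2 libraries a group, this cannot tell whether some same-numbered libraries were paired. With the replicate number as a block, 29 members were called higher and 5 lower in the IR and 8 and 6 in the CR cells of Huh7, against 1 and 7 in the IR and 27 and 4 in the CR cells of Hep3B.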
